A study of Mus musculus with 6 samples.

Results

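The genes of the cytosolic ribosomal proteins were examined in kidneys of mice with polycystic kidney disease. Members were the gene symbols that carry a large-subunit name (Rpl with a number, or Rplp0, Rplp1 and Rplp2) or a small-subunit name (Rps with a number, or Rpsa). They came to 83 of the 23276 genes kept from the deposited table, or 0.357%, with 51 in the large and 32 in the small subunit. Among them, 77 are the canonical proteins of the ribosome (46 large, 31 small) and 6 are paralogs, copies of a ribosomal protein gene that encode a variant protein (Rpl3l, Rpl7l1, Rpl10l, Rpl22l1, Rpl39l and Rps27l).

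RNA came from 6 whole kidneys at postnatal day 22. Of these, 3 kidneys carried the KspCre; Pkd1 F/RC genotype, in which a tubule-specific Cre acts on a floxed Pkd1 allele (F) opposite the hypomorphic RC allele. The other 3 kidneys had both miR17~92 alleles floxed as well. All 6 shared the Pkd1 F/RC alleles and KspCre, so none was a healthy kidney, and whole-kidney RNA includes cells in which KspCre is not active. The values used here are the authors' mean log2 CPM (reads of a transcript, scaled to a common library size) over all 6 kidneys. They carry no value for a single kidney and hence no spread, no test and no comparison of the genotypes. Library depths are unknown, and the floxed genes could not be checked against the genotypes in a mean over both.

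The cytosolic ribosome has a small subunit, which reads the mRNA, and a large subunit, which joins the amino acids. Each subunit is built on ribosomal RNA, and nearly all of its proteins are present as a single copy per ribosome, so that cells need them in similar amounts. Ribosomal protein mRNAs are short and abundant, often begin with a run of pyrimidines (the 5' TOP motif, through which mTOR signalling controls their translation), and have left many processed pseudogenes, which are copies of the mRNA inserted into the genome.

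Sequence decides how far a short read can tell a ribosomal protein gene from its copies. The coding sequences of Rps27 and its paralog Rps27l, each 255 bases long, are shown because both genes were well above the lowest values of the table. Bases that differ between them are in capitals. In GENCODE M21 (GRCm38, the assembly of mm10), Rps27 lies on the minus strand at chr3:90212671-90213651 and Rps27l on the plus strand at chr9:66946086-66949512.
Rps27: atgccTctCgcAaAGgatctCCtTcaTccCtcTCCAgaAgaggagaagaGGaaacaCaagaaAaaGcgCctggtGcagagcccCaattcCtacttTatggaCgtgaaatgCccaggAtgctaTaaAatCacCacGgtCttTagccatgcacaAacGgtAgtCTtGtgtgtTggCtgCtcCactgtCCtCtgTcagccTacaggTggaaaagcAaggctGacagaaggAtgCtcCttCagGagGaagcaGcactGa
Rps27l: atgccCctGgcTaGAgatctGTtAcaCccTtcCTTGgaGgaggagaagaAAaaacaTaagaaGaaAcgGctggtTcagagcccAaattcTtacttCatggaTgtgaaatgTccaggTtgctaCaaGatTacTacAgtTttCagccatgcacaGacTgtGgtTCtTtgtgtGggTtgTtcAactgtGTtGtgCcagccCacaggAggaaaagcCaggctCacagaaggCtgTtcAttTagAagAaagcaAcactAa
They differed at 61 bases, of which 53 were at the last base of a codon. The longest identical stretch was 11 bases, so no 51-base read from the coding part of Rps27 could match Rps27l without a mismatch.

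The pair Rpl39 and Rpl39l, 156 coding bases each, is shown as the contrast, since only Rpl39 was at a substantial level. Rpl39 lies on the minus strand at chrX:37082520-37085402 and Rpl39l on the plus strand at chr16:10170228-10174911, and capitals again mark the differing bases.
Rpl39: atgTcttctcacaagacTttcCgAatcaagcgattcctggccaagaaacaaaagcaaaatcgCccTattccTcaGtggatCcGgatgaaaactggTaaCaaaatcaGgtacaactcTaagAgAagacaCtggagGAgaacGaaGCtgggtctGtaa
Rpl39l: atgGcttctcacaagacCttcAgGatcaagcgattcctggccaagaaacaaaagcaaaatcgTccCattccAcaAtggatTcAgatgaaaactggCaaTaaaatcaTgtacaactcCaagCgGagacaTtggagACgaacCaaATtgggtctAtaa
Here 23 bases differed, and the longest identical stretch was 38 bases. The shortest coding sequence among the members was that of Rpl41, at 78 bases (minus strand, chr10:128548114-128549162), shown because its length sets its extreme value per coding base below.
Rpl41: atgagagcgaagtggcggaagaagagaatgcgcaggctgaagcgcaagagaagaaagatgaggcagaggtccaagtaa
It encodes a small, highly basic protein of the large subunit.

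Ribosomal protein mRNAs were abundant in these kidneys and lay in a narrow band. The 77 canonical genes had a median of 105 CPM, from 30.6 CPM for Rps19 to 306 CPM for Rps24, and 66 of 77 were within 2-fold of that median. A band this narrow was not particular to them. The standard deviation of log2 CPM was 0.719 over these genes and 0.673 over the 76 mitochondrial ribosomal protein genes. The 13001 genes with at least 1 CPM had a median of 12.6 CPM. Among all genes, 36 members were in the top 500, 59 were in the top 1000, and Rps24 alone was in the top 100. The 83 members together summed to 9233 CPM, or 2.49% of the total over 1 row per gene. CPM counts reads whatever the length of the transcript, so that levels of different genes are set against each other below as CPM per kilobase of the matched GENCODE transcript.

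Large and small subunits had nearly the same level. Median log2 CPM was 6.69 (103 CPM) over the 51 large-subunit genes and 6.67 (102 CPM) over the 32 small-subunit genes, a difference of 0.017 on the log2 scale. Over the canonical genes per kilobase of transcript, the medians were 132 CPM for the large and 135 CPM for the small subunit. The quartiles of the canonical genes were 97.5 and 190 CPM per kb in the large subunit and 90.1 and 199 CPM per kb in the small subunit, so the bands overlapped almost entirely. Whether large or small was the higher per kilobase depended on which length was used, and no replicate spread was at hand to judge the difference.

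**Figure D1:**
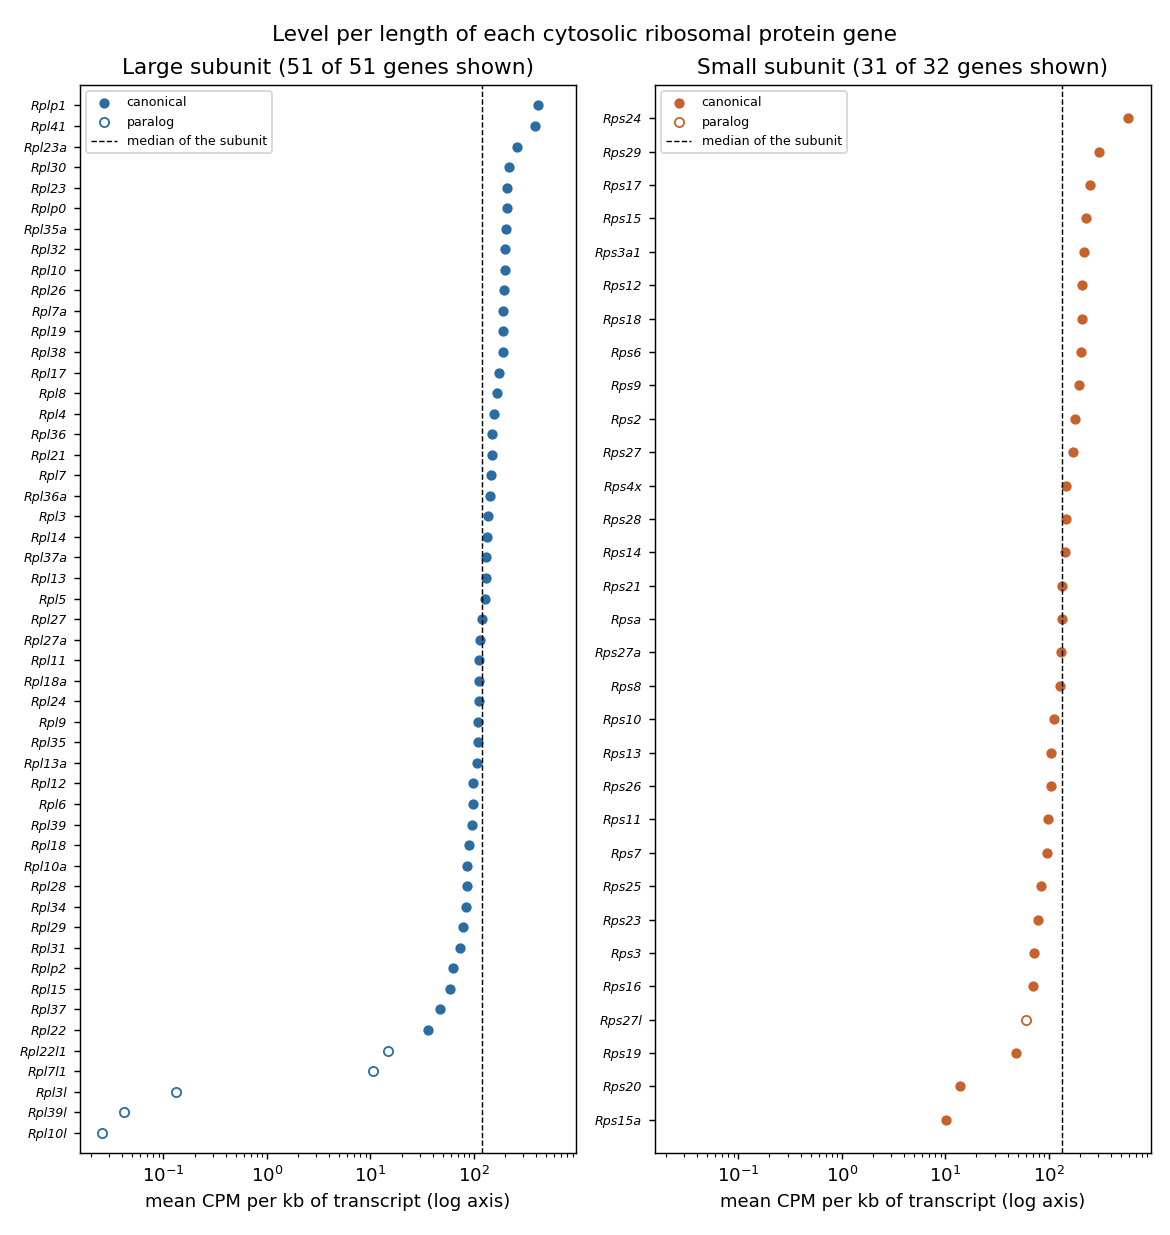
Mean CPM per kb of transcript on a log axis for the 51 large-subunit genes and 31 of the 32 small-subunit genes (1 is not reported), sorted within the subunit. Filled points are canonical genes, open points are paralogs, and the dashed line is the median over the genes of the subunit. All open points of the large subunit lie below the canonical genes, with Rpl10l, Rpl39l and Rpl3l under 1 CPM per kb, while Rps15a and Rps20 are the low canonical genes of the small subunit.

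In the large subunit, the mRNAs of the ribosomal stalk had unequal levels. Rplp0, the base of the stalk that recruits translation factors, had 283 CPM or 208 CPM per kb of transcript. Rplp1 and Rplp2 encode the acidic proteins that bind Rplp0 as pairs. Rplp1 had 207 CPM and the highest level per length of the large subunit, 415 CPM per kb, whereas Rplp2 had 61.1 CPM and 63.4 CPM per kb. By coding length the order of Rplp1 (600 CPM per kb) and Rplp2 (176 CPM per kb) was the same.

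The other large-subunit genes with the most reads were Rpl21 (276 CPM), Rpl5 (265 CPM), Rpl4 (241 CPM) and Rpl23 (221 CPM). Rpl5 carries 5S ribosomal RNA into the large subunit together with Rpl11, and Rpl4 helps to line the tunnel through which the new protein leaves. Per kb of transcript, these genes had 149 CPM (Rpl21), 130 CPM (Rpl5), 157 CPM (Rpl4) and 209 CPM (Rpl23), all within 2-fold of the canonical median of 132 CPM per kb. Rpl11, the partner of Rpl5 on the 5S RNA, had 113 CPM per kb. Rpl3, which reaches towards the peptidyl transferase centre, had 186 CPM and 137 CPM per kb. Rpl41 had 170 CPM from the shortest coding sequence, which gave 388 CPM per kb of transcript and 2176 CPM per kb of coding sequence, the highest of the members on the coding scale.

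At the low end of the canonical large subunit by reads were Rpl37 (39.5 CPM), Rpl34 (53.0 CPM), Rpl36 (57.8 CPM), Rpl29 (58.1 CPM) and Rpl39 (58.3 CPM). Per kb of transcript they ran from 47.3 CPM for Rpl37 to 151 CPM for Rpl36. The lowest canonical large-subunit gene per kb of transcript was Rpl22, an RNA-binding protein at the surface of the ribosome, with 36.4 CPM per kb on a matched transcript of 2051 bases. Per kb of coding sequence Rpl22 had 193 CPM, close to the canonical median of 212 CPM per kb of coding sequence.

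Rps24 had the highest level of the small subunit on both scales, 306 CPM and 583 CPM per kb of transcript. Rps24 takes part in processing the precursor of 18S ribosomal RNA. It was listed with 3 RefSeq transcripts, the lowest of which also had 306 CPM. Next by reads were Rpsa (263 CPM, 135 CPM per kb), also known as the laminin receptor, then Rps3a1 (214 CPM, 219 CPM per kb), Rps2 (179 CPM, 179 CPM per kb) and Rps6 (178 CPM, 203 CPM per kb). Rps6 is the ribosomal protein phosphorylated by S6 kinase downstream of mTOR. The next gene of the small subunit per kb of transcript was Rps29, at 305 CPM.

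Rps19 was the lowest canonical gene by reads, with 30.6 CPM, 48.4 CPM per kb of transcript and 70.0 CPM per kb of coding sequence. Rps19 acts in the maturation of 18S ribosomal RNA and is the gene most often mutated in Diamond-Blackfan anaemia. It was listed in 4 rows, of which the lowest had 11.1 CPM. Rps20 (50.9 CPM), Rps15a (53.2 CPM), Rps21 (53.4 CPM) and Rps28 (57.9 CPM) followed by reads. Per kb of transcript Rps15a had 10.3 CPM and Rps20 13.7 CPM, on matched transcripts of 5179 and 3706 bases, many times their coding lengths of 393 and 360 bases. Per kb of coding sequence they had 135 CPM and 141 CPM, inside the range of the other genes.

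Reads were set against length across the canonical genes. Across the 77 canonical genes, Pearson's r between coding length and log2 CPM was 0.559 and Spearman's rho 0.558, with like values in the large (r = 0.558, 46 genes) and the small subunit (r = 0.574, 31 genes). With the length of the matched transcript in its place, r was 0.0634 and rho 0.318 over the 77 genes, and r was 0.452 in the large and -0.147 in the small subunit. The points share the same libraries, and genes are not independent replicates. Over the 76 mitochondrial ribosomal protein genes, r with coding length was -0.0114 (rho = 0.065). With the length of the matched transcript it was 0.151 (rho = 0.269).

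Paralogs of ribosomal proteins were all below the gene they resemble. Rps27 had 58.7 CPM and Rps27l, a gene induced by p53, had 30.1 CPM, which is 1.95-fold by CPM and 2.82-fold per kb of transcript. Rpl22 had 74.7 CPM against 8.18 CPM for Rpl22l1, 9.13-fold by CPM but 2.46-fold per kb of transcript, since the matched Rpl22 transcript is the longer one. Rpl7 had 169 CPM and Rpl7l1 27.5 CPM, 6.15-fold by CPM and 13.8-fold per kb of transcript. Rpl36al, whose symbol falls outside the naming rule, had 35.9 CPM against 70.0 CPM for the X-linked Rpl36a, a 1.95-fold difference by CPM.

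The tissue-restricted paralogs were near the lowest value of the table, 0.0263 CPM. Rpl3l, known from heart and skeletal muscle, had 0.181 CPM against 186 CPM for Rpl3. Rpl39l, known from testis, had 0.0336 CPM against 58.3 CPM for the X-linked Rpl39. Rpl10l, a testis gene without introns that stands in for the X-linked Rpl10 when the X chromosome is silent, was at the lowest value itself, against 161 CPM for Rpl10. No fold is given for these last pairs because the paralog was at or close to the lowest value the table holds. Markers of other tissues were not all this low. Of 9 such genes, Prm1 and Prm2, which mark sperm cells, were at the lowest value, and Ckm, of muscle, was at 0.0573 CPM. However, 4 of the 9 had at least 1 CPM. These were Alb (13.4 CPM) and Apoa2 (1.34 CPM) of liver, and Hba-a1 (72.9 CPM) and Hbb-b1 (52.6 CPM) of red cells. All 15 kidney markers had at least 1 CPM (Slc34a1 of the proximal tubule 1030 CPM, Umod of the thick ascending limb 1022 CPM, Nphs1 of podocytes 13.0 CPM).

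**Figure D2:**
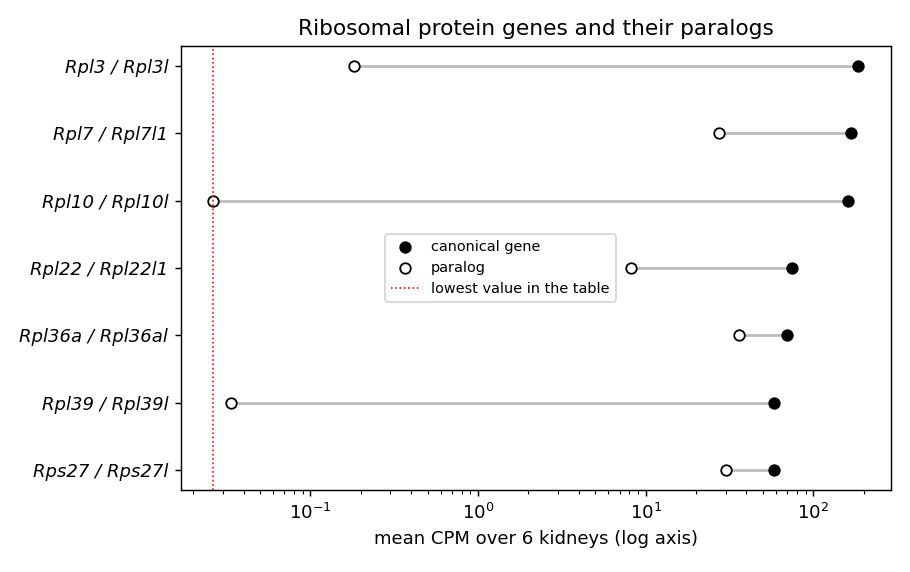
Mean CPM over the 6 kidneys, on a log axis, of 7 ribosomal protein genes (filled points) and their paralogs (open points), joined by a line, with the lowest value in the table dotted. Rpl10l sits on the dotted line and Rpl39l next to it, while Rps27l, Rpl36al, Rpl7l1 and Rpl22l1 lie between 8.18 and 35.9 CPM.

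The likeness of members to other annotated transcripts was measured over all windows of 51 bases, the length of the reads. A window counted as single-place if no annotated transcript of another locus, pseudogenes included, held the same 51 bases on either strand. In the median canonical gene 49.7% of windows were single-place, and 8.84% of those in the coding sequence. In 27 of 77 genes (18 large, 9 small) no coding window was single-place. Of the 77 genes, 76 shared windows with at least 1 annotated pseudogene, and 34 shared windows with 10 or more. Rpl7a shared windows with 118 pseudogenes, Rpl21 with 80, Rpl29 with 76 and Rps2 with 68.

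The lowest shares of single-place windows were found for Rps27 (1.36%), Rpl9 (6.69%), Rpl10 (7.88%), Rps18 (13.5%) and Rpl3 (14.5%). For Rps27 the copy is Rps27rt, which held 98.6% of its windows. The table listed a RefSeq transcript that GENCODE assigns to this copy under the name Rps27, at 58.3 CPM, the same value as the Rps27 transcript itself. Rpl10 shared 92.1% of its windows with Rpl10-ps3, and Rpl9 shared 85.9% with Rpl9-ps6. Among the highest shares were those of Rps3 (97.2%), Rpl22 (95.0%), Rps15a (93.7%) and Rps20 (92.5%). Of the 76 mitochondrial ribosomal protein genes, which serve a separate ribosome, only Mrpl23 had under 50% of windows single-place, at 23.7%.

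Members with and without single-place coding windows had much the same mean CPM. The 27 canonical genes without a single-place coding window had a median of 105 CPM (57.9 to 276 CPM), and the other 50 had a median of 106 CPM (30.6 to 306 CPM). Per kb of coding sequence their medians were 238 and 201 CPM. Across the 77 genes, the share of single-place windows had r = -0.116 (rho = -0.14) with log2 CPM. In the large subunit r was 0.038 and in the small subunit -0.3. With log2 CPM per kb of transcript, r was -0.449 (rho = -0.406) over the 77 genes, -0.323 in the large and -0.565 in the small subunit. Genes with a long transcript outside the coding part, such as Rps15a and Rps20, have a high share and a low level per kb. The correlations with the level per kb therefore share transcript length on both axes. Alignments of low mapping quality were discarded by the authors, and how that step dealt with reads that fit several places was not tested.

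**Figure D3:**
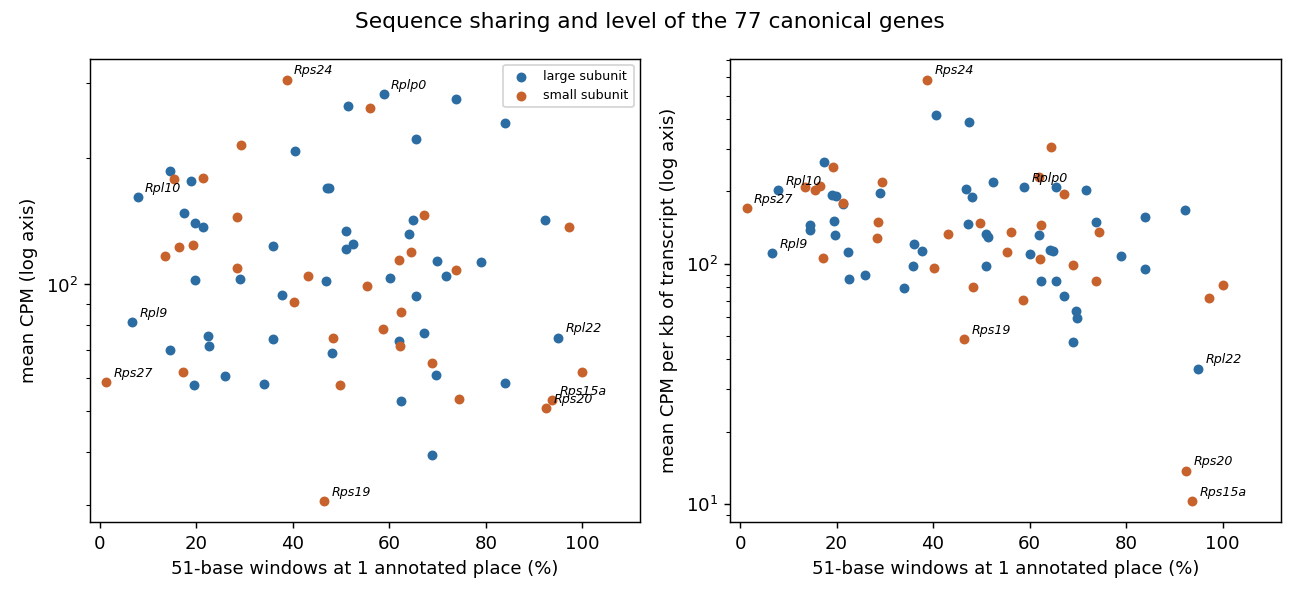
Share of 51-base windows found at 1 annotated place, in percent, against mean CPM (left) and mean CPM per kb of transcript (right), both on log axes, for the 46 large-subunit and 31 small-subunit canonical genes. On the left the points spread across the whole range of shares, with Rps27 (1.36%) the lowest, and on the right Rps15a, Rps20 and Rpl22 lie low at shares above 90%.

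Pseudogenes and further copies with their own row in the table were mostly low. Rpl34-ps1 had 52.9 CPM, almost the value of Rpl34 (53.0 CPM), which had a further row that was also at 52.9 CPM. Rpl34 shared 37.6% of its windows with Rpl34-ps1, and whether these rows hold the same reads was not tested. Rps4y2 had 6.16 CPM, Rplp2-ps1 5.52 CPM, Rps15a-ps6 2.78 CPM and Rps19-ps3 0.667 CPM. The remaining pair was near the lowest value, with Rps15a-ps4 at 0.103 CPM and Rpl31-ps12 at 0.0438 CPM.

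Where a member had several rows, these mostly had close values, but rows of a gene may share reads. One row was listed for 50 members and several for 33. In 20 of those 33 the rows were within 0.1 of each other on the log2 scale, and in 9 they were more than 0.5 apart. Rows of Rpl22l1 ran from 0.636 to 8.18 CPM. Those of Rps27a, which encodes a ubiquitin fused to a small-subunit protein, ran from 10.4 to 105 CPM. The highest row, used here for every member, was an assembled transcript in 10 members. In 1 member, Rps27 (58.7 CPM), it had a non-coding RefSeq identifier, and the RefSeq mRNA rows of Rps27 were at 58.3 CPM.

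Cytosolic ribosomal protein mRNAs were well above their mitochondrial counterparts. The 76 mitochondrial ribosomal protein genes had a median of 13.0 CPM and 9.20 CPM per kb of transcript, against 105 CPM and 132 CPM per kb for the 77 canonical cytosolic genes. Per kb of coding sequence the medians were 21.5 CPM for the mitochondrial and 212 CPM for the canonical genes. By CPM, 75 canonical genes lay above the highest mitochondrial gene, Mrps6 at 47.3 CPM, and the exceptions were Rps19 and Rpl37.

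**Figure D4:**
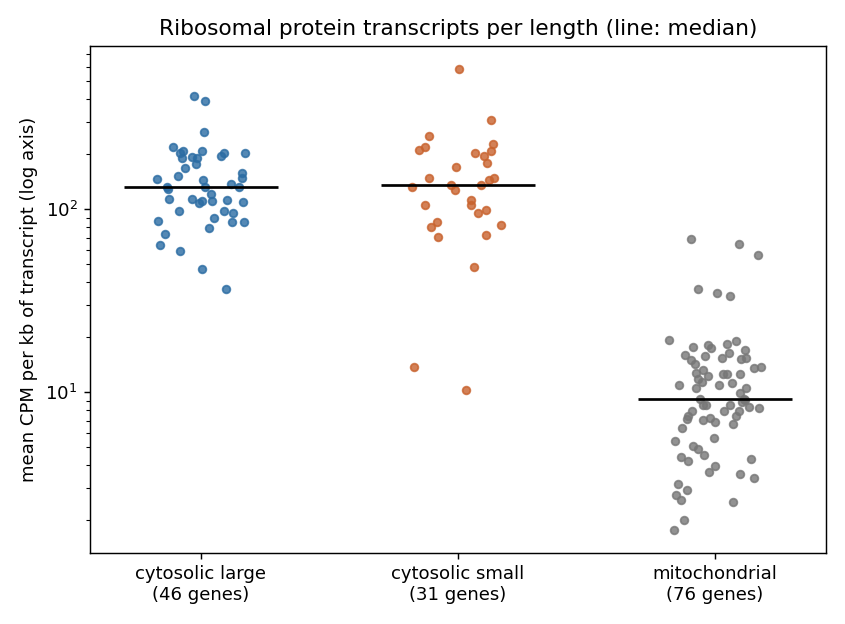
Mean CPM per kb of transcript, on a log axis, for 46 canonical large-subunit, 31 canonical small-subunit and 76 mitochondrial ribosomal protein genes, with 1 point per gene and a line at the median. The medians are 132, 135 and 9.20 CPM per kb. The lowest mitochondrial point, 1.78 CPM per kb, is Mrpl17, on a matched transcript of 7300 bases with a coding length of 531 bases.

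Ribosomal proteins whose symbols the naming rule misses lay within the range of the canonical members. Gnb2l1, the small-subunit protein RACK1, had 133 CPM and 92.0 CPM per kb, and Fau, a ubiquitin-like fusion to the small-subunit protein S30, had 61.8 CPM and 84.0 CPM per kb. A list of 17 other mRNAs with a 5' TOP motif had a median of 109 CPM and 49.9 CPM per kb of transcript, the latter below the canonical median of 132 CPM per kb, and included the elongation factors Eef1a1 (2637 CPM) and Eef2 (654 CPM) and Tpt1 (605 CPM). A list of 22 genes for ribosome assembly and ribosomal RNA synthesis had a median of 13.2 CPM and 4.82 CPM per kb of transcript. Its highest members by reads were nucleolin (Ncl) at 231 CPM and Ubtf at 52.1 CPM. Per kb of transcript they had 28.2 and 11.1 CPM, below the canonical median of 132 CPM per kb. The matched Ncl transcript has 8202 bases, of which 2124 are coding. Per kb of coding sequence Ncl had 109 CPM, against a canonical median of 212 CPM.

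Genes of the members lay on 19 chromosomes. Chromosome 7 held 14 of the 77 canonical genes (5 large, 9 small), followed by chromosome 11 with 7. The share of all genes on these chromosomes was not computed, so the counts do not show whether members cluster there. Rpl10, Rpl36a, Rpl39 and Rps4x are X-linked, and had 202, 145, 95.2 and 148 CPM per kb of transcript, around the canonical median.

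Bases around the annotated starts were searched in the RefSeq promoter windows (GRCm38.p6), which were found for 57 of the 77 canonical genes. A run of at least 8 C or T within 30 bases either side of the start was present in 50.9% of them, against 22.7% of all 27025 promoters and 26.9% of 67 promoters of mitochondrial ribosomal protein genes. The most upstream annotated start was used for each gene, and runs wholly before the start were counted too. These shares are therefore not shares of mRNAs that begin with a 5' TOP motif. The longest runs, in capitals, are shown on the gene's strand from 30 bases before the start.
Rpl7a, chr2:26910777-26910836, plus strand: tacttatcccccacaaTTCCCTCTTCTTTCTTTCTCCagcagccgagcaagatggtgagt
Rpl27a, chr7:109519165-109519224, plus strand: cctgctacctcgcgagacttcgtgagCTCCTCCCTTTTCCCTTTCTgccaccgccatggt
Rpl35, chr2:39005102-39005161, minus strand: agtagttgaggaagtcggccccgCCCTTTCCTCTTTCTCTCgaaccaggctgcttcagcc
Rpl11, chr4:136053364-136053423, minus strand: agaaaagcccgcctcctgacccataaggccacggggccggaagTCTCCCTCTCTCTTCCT
Rpl15, chr14:18270957-18271016, minus strand: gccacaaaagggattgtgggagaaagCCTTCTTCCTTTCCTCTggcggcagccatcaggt
The run reached 21 bases in Rpl7a and 20 in Rpl27a, against a median of 8 in the canonical genes and 5 over all promoters. Canonical genes with a run of at least 8 had a median of 103 CPM (53.0 to 306 CPM, 29 genes), and those without had 91.6 CPM (30.6 to 283 CPM, 28 genes), with wide overlap. The letters CCGGAAG, a core of sites for ETS-family factors, were found on either strand of the 300-base window in 40.4% of the canonical genes, 32.8% of the mitochondrial ribosomal protein genes, 17.7% of genes with at least 1 CPM and 9.14% of all promoters. TATAAA on the gene's strand in the 50 bases before the start was found in 0 of 57 canonical genes, 0 of 67 mitochondrial ribosomal protein genes, 1.48% of genes with at least 1 CPM and 2.88% of all promoters. The letters do occur just after the annotated start in Rplp0, Rps2 and Rpl36a, so this count depends on where the start is annotated. A match gives letters only, and no binding was measured.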

How the data were processed

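Whole-kidney RNA was made into strand-specific libraries by the authors with a total RNA kit and sequenced as 51-base single-end reads. Reads were trimmed and mapped to mm10 with TopHat 2.0.12, and alignments of low mapping quality were discarded. The submitters' processing notes also name Cufflinks, featureCounts from Subread 1.4.6 and edgeR 3.2.4. The deposited table gives, for 54721 transcripts, the authors' mean log2 CPM over the 6 kidneys, which was the column used. Its other columns hold the authors' comparison of the genotypes (log2 fold change, likelihood ratio, p-value and adjusted p-value) and were not used. A planned test between genotypes was not run, since values for single kidneys were not analysed here.

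Rows whose symbol begins with XLOC_, the label of an assembled locus without a gene name, were left out. The row with the highest mean was kept per remaining gene symbol. CPM is 2 to the power of the deposited value, which may include the prior count of the authors' tool. The sum over all rows was 1007270 CPM, and the sum over the row kept per gene symbol was 370295 CPM. The latter leaves out both the further rows of a gene and the XLOC_ rows. Rows of the same gene may share reads, which was not tested. Some had identical values, such as both rows of Rpl26 (103.081 CPM) and a RefSeq and an assembled row of Rps19 (30.6435 CPM). Close rows are therefore not separate measurements of a gene. The lowest value was held by 4617 rows. Lengths, coding sequences and coordinates came from GENCODE M21 transcripts matched by RefSeq identifier and symbol, for all 83 members. RefSeq mRNA identifiers were used, also where the row kept was an assembled or non-coding transcript. Where several GENCODE transcripts matched an identifier, the longest was taken, which lowers the level per kb of transcript. The window search was tested on simulated sequences. Members and lists were chosen with earlier results of these data known. The genes named are the 5 highest and 5 lowest by mean log2 CPM of each subunit, the stalk genes, Rpsa, the paralog pairs and the 5 highest and 5 lowest shares of single-place windows. Other genes named, and the promoter search, were chosen after their values were seen. Some genes that fall under this rule are not reported here. Python 3.11.15, numpy 2.4.6 and pandas 2.3.3 were used.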

Additional observations from a re-analysis of the deposited data

How the results depend on the processing

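Of 24 alternative values, 17 kept their direction and moved by less than 1.5-fold, the limit used because no replicate spread exists. The share of summed CPM held by the members was 1.352% over all rows of the table, against 2.493% with 1 row per gene. The median level per kb depended on the length used. For the large subunit, log2 CPM per kb was 6.917 by transcript, 7.679 by coding length and 8.14 by single-place windows, and for the small subunit 7.066, 7.67 and 7.981. The large minus small difference per kb, -0.1485 by transcript, changed sign to 0.008294 by coding length and 0.159 by single-place windows. These divide the same CPM by other lengths. In log2 CPM without a length, large minus small stayed between 0.01734 and 0.2376. Coding length was taken from the annotation, and windows were searched among annotated transcripts and not in the genome, an alternative that was not run. The windows alternative and the one without paralogs were chosen after seeing the data. No paired analysis was possible because the column used is a mean over all kidneys, and for the same reason no kidney could be left out in turn. The annotation's transcripts can be longer than the transcripts counted, and library depth is unknown.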

Other observations

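Genes of other families ran from far above to below the canonical ribosomal proteins, and several lay within their range of 30.6 to 306 CPM. Among the mRNAs with a 5' TOP motif, Eef1a1 was the third most abundant gene of the table, whereas the elongation factor subunits Eef1b2 (72.2 CPM), Eef1d (29.2 CPM) and Eef1g (112 CPM), of the complex that recharges it, were far below it, at 37.3, 13.6 and 60.3 CPM per kb of transcript against 1470 for Eef1a1. The subunits of the initiation factor eIF3 in the list, Eif3e, Eif3f and Eif3h, had 46.1, 36.2 and 56.6 CPM. For RNA polymerase I, which transcribes ribosomal RNA, Polr1a and Polr1b had 14.1 and 7.30 CPM. The hemoglobin genes Hba-a1 and Hbb-b1, from blood, had 72.9 and 52.6 CPM, and albumin (Alb) had 13.4 CPM. Their part in the levels of the ribosomal protein genes was not tested.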
